A study of Mus musculus with 75 samples.

Results

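Gene expression was compared between cerebral cortex of mice without the long isoform of DNMT3A and wild type cortex, in 6 RNA libraries of the 75 samples of the series. The 6 were chosen by their titles: the 3 Dnmt3a1-/- cortex RNA libraries and the 3 wild type cortex RNA libraries numbered 1 to 3 without a further letter. Both groups are labelled C57BL/6 at postnatal day 21, and they differ in genotype, wild type against Dnmt3a1-/-. Neither the deleted exons nor the cells in which the deletion acts are named in the labels used here, and the Dnmt3a1-/- genotype carries no mark of a driver line. The other samples of the series cover hippocampus, cortical neuron nuclei, embryonic stem cells, other Dnmt3a alleles, chromatin immunoprecipitation and DNA methylation. Of these, hippocampus of the same genotype (3 against 3 libraries) and cortex of the Dnmt3a1_delta_N mutant (3 against the 3 wild type libraries whose numbers carry an n) are used below for comparison, also C57BL/6 at postnatal day 21. The labels do not tie a mutant to a wild type series in words, so these pairs rest on the titles.

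DNMT3A is a de novo DNA methyltransferase, which places methyl groups on cytosines that carried none. A first promoter gives the long protein DNMT3A1 and a promoter inside the gene gives the short DNMT3A2, which is shorter at its N-terminus but keeps the reading and catalytic domains. In the brain DNMT3A is known for the methylation of cytosines outside CG dinucleotides in maturing neurons after birth.

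The starts of the gene are shown because the genotype removes 1 of its products. RefSeq's table of promoters (build GRCm38.p6) holds 3 windows for Dnmt3a on chromosome 12, plus strand, and does not say which isoform each belongs to. The first and the last are printed, as the 250 bases before each start, with CG dinucleotides in capitals. The first lies at chr12:3806730-3806979 and holds 38 CG dinucleotides, and the last lies at chr12:3891494-3891743 and holds 15.
Dnmt3a first start: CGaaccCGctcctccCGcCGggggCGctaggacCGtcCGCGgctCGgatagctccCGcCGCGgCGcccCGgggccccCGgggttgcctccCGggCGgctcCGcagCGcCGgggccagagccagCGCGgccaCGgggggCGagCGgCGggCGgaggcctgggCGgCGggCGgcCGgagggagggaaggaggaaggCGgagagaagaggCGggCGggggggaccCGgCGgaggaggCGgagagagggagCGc
Dnmt3a last start: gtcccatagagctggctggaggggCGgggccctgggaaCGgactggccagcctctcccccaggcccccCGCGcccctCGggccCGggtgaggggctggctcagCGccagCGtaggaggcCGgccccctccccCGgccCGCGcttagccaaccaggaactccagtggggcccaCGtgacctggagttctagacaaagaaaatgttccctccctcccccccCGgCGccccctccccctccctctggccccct

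Counts of Dnmt3a (ENSMUSG00000020661) followed the labels in each library. It was read at 150, 165 and 148 CPM (reads of a gene scaled to library size) in wild type and at 72.5, 80.6 and 74.6 CPM in Dnmt3a1-/-. The Dnmt3a1-/- libraries all lay below the lowest wild type library, and the fitted level was 0.492 of that in wild type. The fall was 1.02 ± 0.07 on the log2 scale (standard error, SE, n = 3 against 3), with an adjusted p of 1.2e-05 by edgeR's quasi-likelihood test with Benjamini-Hochberg adjustment, which is the test meant wherever an adjusted p is printed. Reads of both isoforms are summed in this count, so it does not tell which of them stayed. Writers, erasers and readers of DNA methylation, Dnmt3a included, were 19 tested genes. Of these 2 rose (10.5%) and 1 fell (5.26%), Dnmt3a itself, not far from the 8.95% and 8.91% of all genes tested. Tet2, which oxidises methylcytosine, rose by 0.46 ± 0.09 (adjusted p = 0.0056). Gadd45b, which is linked to demethylation, rose by 0.61 ± 0.16 (adjusted p = 0.02), a call lost without wild type library 2 or 3 or Dnmt3a1-/- library 1 or 2. The maintenance enzyme Dnmt1 differed by 0.06 ± 0.08 and the other de novo enzyme Dnmt3b by 0.59 ± 0.24, with adjusted p of 0.68 and 0.11. Against all 8 wild type cortex libraries of the series Dnmt3b was at 0.68 and called (adjusted p = 0.029). The genes next to Dnmt3a in RefSeq's order were read as well: of 12 with a test, Kif3c, a kinesin subunit, fell by 0.21 ± 0.07 (adjusted p = 0.04) and Adcy3, an adenylyl cyclase, by 0.39 ± 0.09 (adjusted p = 0.0091), and the other 10 did not pass. The call of Kif3c was lost without any 1 library except wild type library 1. The calls of Tet2, Gadd45b, Kif3c and Adcy3 were lost with the level of choroid plexus markers as a term of the fit, which is explained with the count of all genes called, and that of Dnmt3a was not. Kif3c was at -0.33 against all 8 wild type cortex libraries of the series and called. Pomc, Efr3b and Dnajc27, which lie between Dnmt3a and Adcy3 in that order, are among the 10.

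The libraries held 17779056 to 26832653 counts on genes in wild type and 11745576 to 26363273 in Dnmt3a1-/-, where library 1 was the shallowest. By Xist and Y-linked reads libraries 1 and 3 of each group came from males and library 2 from a female. Whether the 3 libraries of a group stand for 3 animals is not in the labels, and p-values therefore measure the spread between these libraries, which may be technical. The first principal component of log2 CPM held 46.04% of the variance and placed wild type at -31.42 to -14.51 and Dnmt3a1-/- at 15.64 to 25.77. Of uniquely aligned reads, 9.376% to 10.16% fell outside genes in wild type and 10.34% to 10.8% in Dnmt3a1-/-. The tissue is whole cortex, so fewer cells of a type and less RNA per cell cannot be told apart in any result below.

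Many genes differed, most of them by a small amount. Of 15933 genes tested, 2845 were called at an adjusted p under 0.05, which is 17.9% of them. There were 1426 called higher (8.95%) and 1419 called lower (8.91%) in Dnmt3a1-/-. Blocking on the replicate number gave 4941 calls (31%), 2398 higher and 2543 lower, and 2830 of the 2845 were among them. The median log2 change was 0.46 for called higher and -0.37 for called lower genes, beside 0.01 for all genes tested. Called and at least 1.5-fold were 488 higher and 255 lower genes, and at least 2-fold 180 higher (1.13%) and 55 lower (0.345%). The count was 1599 without wild type library 3 and 1835 without Dnmt3a1-/- library 2. Markers of the choroid plexus, the tissue of the ventricles, summed to higher values in Dnmt3a1-/- libraries 1 and 3 than in any wild type library, as given further on, and with the markers' mean level in each library as a term of the fit (the choroid term) 371 genes were called. Against all 8 wild type cortex libraries of the series the count was 3109. Those 8 join libraries numbered with and without a letter and have no term for this, so differences between these sets enter the values. Without wild type library 3 and Dnmt3a1-/- library 1 together the count was 1109. These fits are named below for many of the calls they ended and the counts they moved, but not for all. Among 207 named genes the choroid term ended 114 calls, and the fit against all 8 wild type libraries 45. Leaving out wild type library 3 and Dnmt3a1-/- library 1 ended 54, those of Adcy3, Gadd45b, Stag3 and Tubb3 among them. Libraries of the groups did not overlap for 5740 genes (36%).

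**Figure D1:**
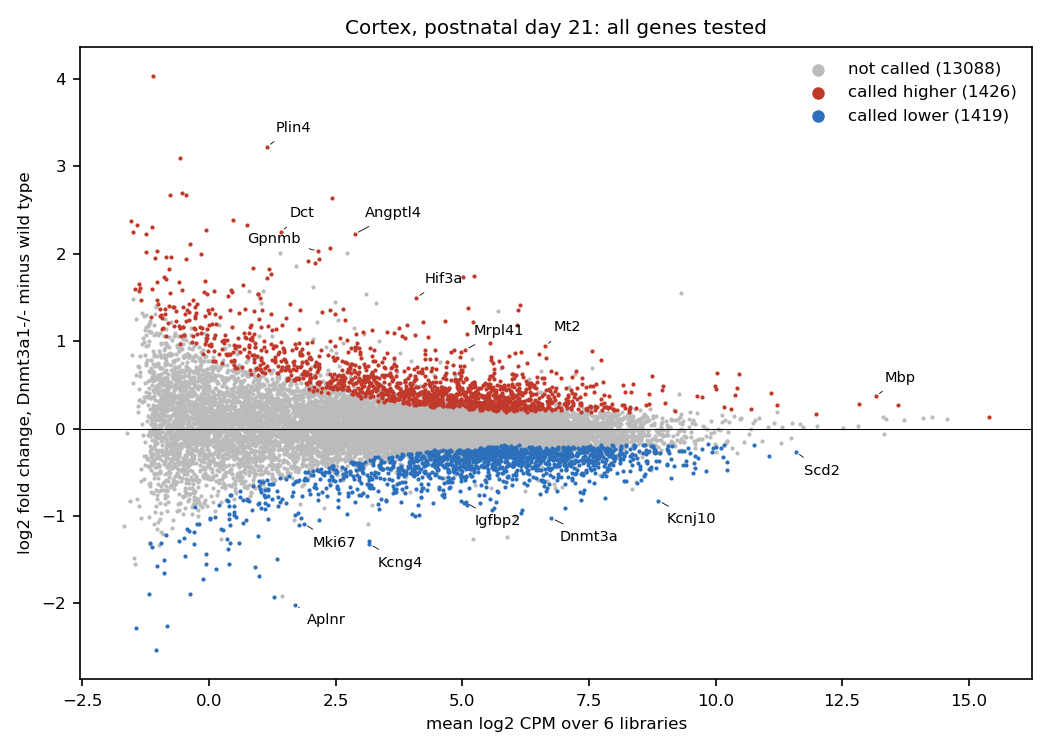
Log2 fold change of Dnmt3a1-/- over wild type cortex (vertical axis) against mean log2 CPM over the 6 libraries (horizontal axis), 1 point per gene tested, red for the 1426 called higher and blue for the 1419 called lower. Called changes of at least 2-fold number 180 above and 55 below, and Dnmt3a and Kcnj10 stand out among lower genes of high CPM.

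Among genes whose mean log2 CPM was 1 or more and whose groups did not overlap, the largest rises included regulators of stored fat. Plin4 (ENSMUSG00000002831), which coats lipid droplets, was read at 0.404, 0.559 and 1.38 CPM in wild type and 3.96, 8.9 and 6.77 CPM in Dnmt3a1-/-, a 9.36-fold difference (3.23 ± 0.43 on the log2 scale, adjusted p = 0.0026). Angptl4, a circulating protein that blocks lipoprotein lipase, went from 3.11, 4.17 and 2.87 to 13.1, 20 and 14.5 CPM (2.22 ± 0.18, adjusted p = 4.8e-05). In both genes the lowest Dnmt3a1-/- library was above the highest wild type library, which their choice required, and library 2 was the highest of the Dnmt3a1-/- group. Slc2a4, the insulin-responsive glucose transporter, went from 2.67, 2.24 and 1.03 CPM to 7, 9.13 and 6.89 CPM and rose by 1.91 ± 0.24. Dct, an enzyme of melanin synthesis, went from 0.889, 1.38 and 1.32 CPM to 5.74, 4.64 and 6.69 CPM and rose by 2.25 ± 0.21. Gpnmb, a glycoprotein of lysosomes and melanosomes, went from 2.14, 2.05 and 2.35 CPM to 7.51, 10.2 and 8.49 CPM and rose by 2.03 ± 0.16. The spread within each group was narrow for Gpnmb next to this gap. Tyrp1, which defines pigment cells, was at 0 counts in all 6 libraries and Tyr held 3 counts over all 6, while Pmel did not pass. Of 9 tested melanocyte and pigment genes 3 rose, Dct and Gpnmb among them, and 1 fell, with a median of 0.33 and 8 of the 9 estimates above 0. With all 8 wild type libraries as controls 5 rose and 0 fell, and 0 fell with the choroid term. The 5 genes given with values here were called in all of these fits.

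Other genes among the largest rises were of mixed kind. Myo5c, an unconventional myosin of secretory epithelia, went from 2.3, 3.02 and 2.52 to 6.58, 12.4 and 13 CPM and rose by 2.06 ± 0.24 (adjusted p = 0.00068). Dlk1, an imprinted membrane protein that restrains fat cell differentiation, went from 2.63, 1.6 and 2.75 to 7.68, 11.6 and 6.89 CPM (1.94 ± 0.25, adjusted p = 0.00087). Rtp1, a chaperone of odorant receptors, rose by 1.90 ± 0.21, and Ugt1a6a, a glucuronosyltransferase, by 1.83 ± 0.21. Ugt1a6a shares exons with other Ugt1a genes, so its reads are uncertain. Agt, the angiotensin precursor that astrocytes secrete, went from 20.8, 19.9 and 22 to 69.1, 90.7 and 49.5 CPM (1.74 ± 0.24, adjusted p = 0.0083). With the replicate block it did not pass (adjusted p = 0.055), nor without wild type library 1 (adjusted p = 0.061), nor without wild type library 3 and Dnmt3a1-/- library 1. Wfikkn2, a secreted binder of growth differentiation factors, went from 2.63, 3.06 and 0.974 to 20.4, 8.52 and 15.6 CPM (2.63 ± 0.50, adjusted p = 0.028). It was lowest in wild type library 3 and highest in Dnmt3a1-/- library 1, did not pass with the block (adjusted p = 0.1), and lost its call without wild type library 1 or 2 or Dnmt3a1-/- library 3. Within each group this order of libraries is also that of the summed choroid plexus markers given further on. Wfikkn2 was still called with the choroid term and without wild type library 3 and Dnmt3a1-/- library 1.

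Genes with the largest fall, picked in the same way, included receptors and adhesion proteins of vessels and neuronal channels. Aplnr (ENSMUSG00000044338), the apelin receptor, was read at 8.04, 5.48 and 5.33 CPM in wild type and 2.11, 1.1 and 1.68 CPM in Dnmt3a1-/- and fell by 2.02 ± 0.23 (adjusted p = 0.00025). Its ligand Apln went from 75, 57.8 and 67.1 to 35.8, 32 and 37.4 CPM and fell by 0.93 ± 0.10 (adjusted p = 0.00012). Pcdh12, a protocadherin of endothelium, went from 5.17, 3.88 and 4.47 to 1.52, 1.1 and 1.07 CPM and fell by 1.93 ± 0.20. Groups did not overlap in any of these 3 genes, beside 17.5% of all genes not overlapping in the lower direction. The choice by size of change required this of Aplnr and Pcdh12. Kcng4, a silent subunit that tunes the KCNB potassium channels, was close to constant in wild type at 14.4, 14.3 and 13.9 CPM and was read at 4.98, 6.51 and 5.36 CPM in Dnmt3a1-/- (1.32 ± 0.12 lower, adjusted p = 4.0e-05). Zfhx4, a large zinc finger protein, fell by 1.10 ± 0.21, and Kcnb2, a delayed rectifier, by 1.04 ± 0.24. Slc5a3, the sodium-dependent carrier of myo-inositol, went from 19, 21.2 and 31.5 to 13.4, 10.2 and 12.4 CPM (1.00 ± 0.20 lower, adjusted p = 0.012, lost without Dnmt3a1-/- library 2 at 0.057). Slc38a5, a glutamine carrier of brain endothelium, fell by 1.28 ± 0.22 (adjusted p = 0.0062, not called without Dnmt3a1-/- library 2). Lum and Abi3bp, matrix proteins of fibroblasts, fell by 1.495 ± 0.25 and 1.02 ± 0.22. Lum was not called against all 8 wild type libraries, at -1.02 (adjusted p = 0.061). Zfhx4, Kcnb2, Slc5a3 and Slc38a5 were not called with the choroid term, where they were at -1.187, -0.809, -0.723 and -1.332. Kcnb2 was also lost without wild type library 3 and Dnmt3a1-/- library 1.

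**Figure D2:**
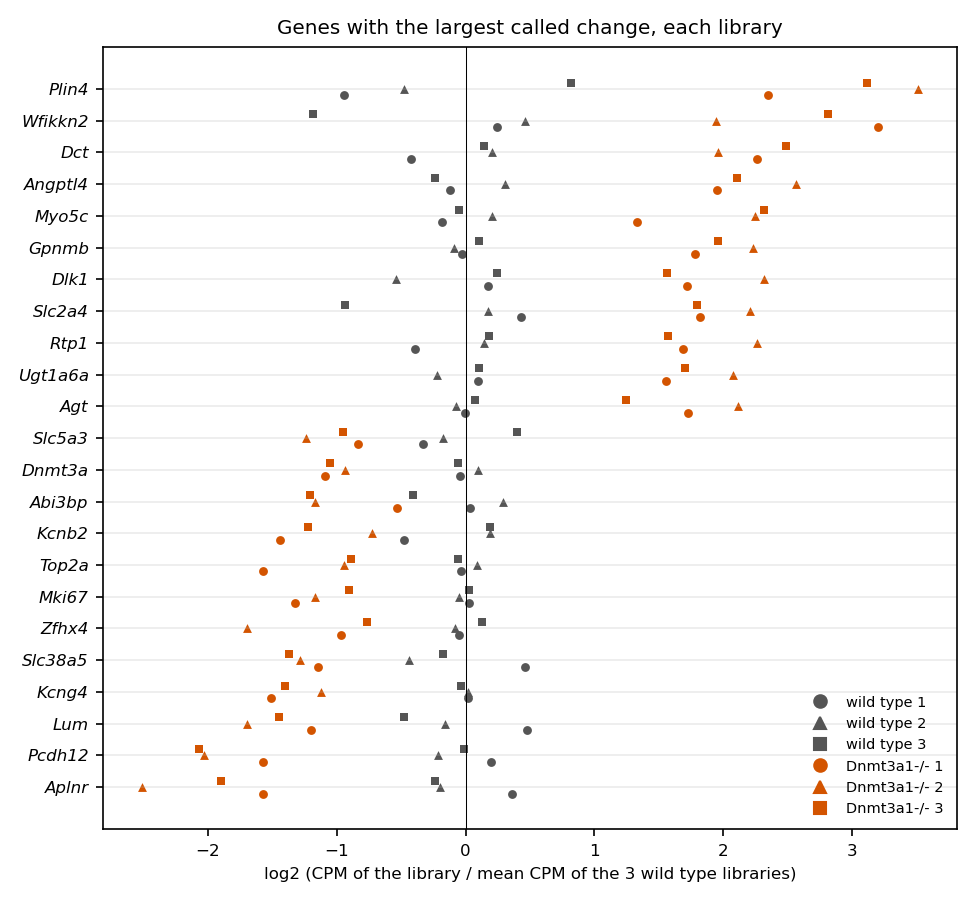
CPM of each library over the mean of the 3 wild type libraries, on a log2 axis, for genes called higher and genes called lower, picked by the size of their change (rows). Grey symbols are wild type, orange Dnmt3a1-/-, and circles, triangles and squares are libraries 1, 2 and 3; the colours do not overlap in any row, which the choice of these genes required, and Wfikkn2 and Plin4 spread most.

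Called genes with the highest CPM changed little in size. Mbp, the myelin basic protein, went from 7676, 8821 and 7862 to 9662, 10943 and 10914 CPM and rose by 0.37 ± 0.07 (adjusted p = 0.0023). Cpe, a peptide-processing enzyme of secretory granules, went from 6868, 6531 and 6559 to 8092, 8299 and 7906 CPM and rose by 0.28 ± 0.05. The sodium pump subunit Atp1b1 fell by 0.47 ± 0.08 and the calcium sensor of vesicle release Syt1 by 0.38 ± 0.09. Of mitochondrial transcripts, mt-Nd5 rose by 0.27 ± 0.06, and mt-Co1 rose by 0.14 ± 0.04 with an adjusted p of 0.048 that missed the threshold without any 1 of the 6 libraries. Sparcl1 (0.17 ± 0.05) and Tspan7 (-0.18 ± 0.06) were called with all 6 libraries and lost without wild type library 2 or 3 or Dnmt3a1-/- library 1 or 2, and Sparcl1 also without Dnmt3a1-/- library 3. None of these 8 genes was called with the choroid term. Neither mt-Co1, at 0.15 (adjusted p = 0.17), nor Tspan7, at -0.13 (adjusted p = 0.14), was called against all 8 wild type libraries, where the changes of mt-Nd5 and Sparcl1 were larger, at 0.46 and 0.29. Syt1 was lost without wild type library 3 and Dnmt3a1-/- library 1.

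Gene lists of pathways, families and cell types show where the calls lay. For each, the number of tested members called is read against 8.95% of all genes called higher and 8.91% called lower, and the median log2 change against 0.01 over all genes.

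**Figure D3:**
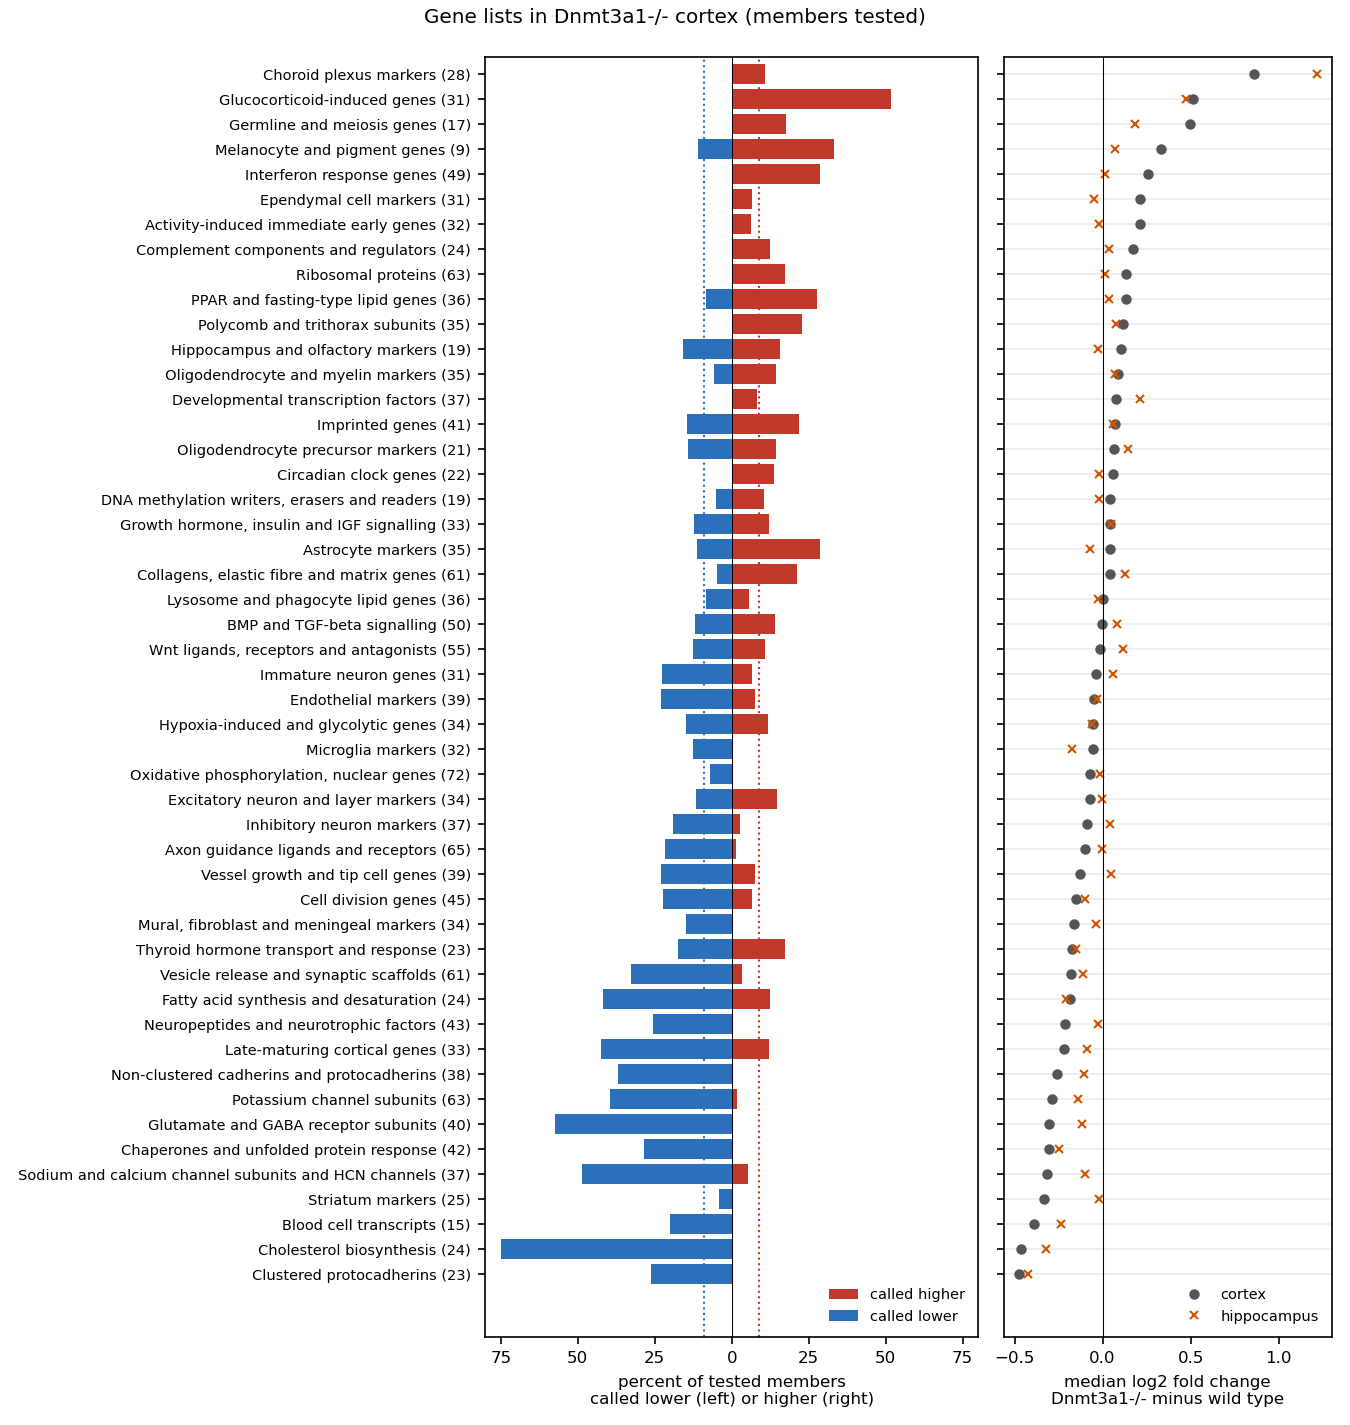
Left, percent of the tested members of each of 49 gene lists called lower (blue) or higher (red) in Dnmt3a1-/- cortex, with dotted lines at the percent of all genes called; the number tested is in brackets. Right, the median log2 fold change of the members in cortex (dots) and hippocampus (crosses); cholesterol biosynthesis reaches 75% lower and glucocorticoid-induced genes 51.6% higher.

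Cholesterol biosynthesis was lower along most of its steps. Of 24 tested members 18 fell, 0 rose and the median was -0.46. Sqle, which makes the first oxygenated sterol precursor, was read at 120, 118.7 and 126 CPM in wild type and 79.5, 77.3 and 82.6 CPM in Dnmt3a1-/-, and fell by 0.60 ± 0.07 (adjusted p = 0.00012). Msmo1 and Dhcr7, enzymes of later steps, fell by 0.74 ± 0.07 and 0.67 ± 0.08. Within each group these genes varied little, and groups did not overlap for 21 of the 24, beside 17.5% of all genes not overlapping in the lower direction. Srebf2, the transcription factor of the pathway, fell by 0.38 ± 0.07; it was picked after its values were seen. With the choroid term 6 members were called lower, Sqle, Msmo1 and Dhcr7 among them and Srebf2 not. Sqle was at -0.39 against all 8 wild type libraries and still called, and Srebf2 was at -0.26 (adjusted p = 0.056).

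Fatty acid synthesis moved in both directions. Of 24 tested members 10 fell and 3 rose, with a median of -0.19. Acss2, which makes acetyl-CoA from acetate, fell by 0.48 ± 0.07, Fads1, a desaturase of long fatty acids, by 0.45 ± 0.06, and Scd2, the main desaturase of brain, by 0.27 ± 0.05. Acacb, the acetyl-CoA carboxylase that restrains fatty acid oxidation, was read at 7.44, 7.79 and 7.91 CPM in wild type and 15.3, 17.8 and 16.4 CPM in Dnmt3a1-/- and rose by 1.11 ± 0.10 (adjusted p = 4.7e-05). Lpin1, a phosphatidate phosphatase, rose by 0.54 ± 0.08, and Srebf1, a transcription factor of this pathway, by 0.46 ± 0.09. The number of falling members was 6 without wild type library 3 and 5 without Dnmt3a1-/- library 1, and 5 members rose with the replicate block. It was 6 against all 8 wild type libraries, 3 without wild type library 3 and Dnmt3a1-/- library 1, and 0 with the choroid term, where Acacb and Lpin1 were still called higher and Srebf1 was not. Scd2 was at -0.02 (adjusted p = 0.92) against all 8 wild type libraries.

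Targets of PPAR receptors and of fasting rose in part. Of 36 tested members 10 rose (27.8%), or 6 with the choroid term, and the median was 0.13; the 3 that fell are 8.33%, close to the background. Angptl4, given above, is a member. Plin3, another droplet coat protein, was read at 14, 15.2 and 13.6 CPM in wild type and 26.9, 26.4 and 24.5 CPM in Dnmt3a1-/- and rose by 0.86 ± 0.09. Ucp2, a carrier of the inner mitochondrial membrane, rose by 0.54 ± 0.08. Lpl, the lipase that Angptl4 inhibits, went from 29.2, 30 and 30.1 to 18.7, 18.2 and 23 CPM and fell by 0.57 ± 0.10. Slc16a1, the monocarboxylate carrier that also moves ketone bodies, went from 145, 161 and 113 to 295, 256 and 224 CPM and rose by 0.88 ± 0.14 (adjusted p = 0.0055); it stands in the hypoxia and endothelial lists.

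Genes known to be induced by glucocorticoids rose as the list with the highest share of called higher members among the 49. Of 31 tested members 16 rose and 0 fell, the median was 0.51, and 30 of the 31 estimates were above 0. Mt1 and Mt2, metallothioneins that bind zinc and copper, were read at 157, 169 and 161 and at 69.5, 75 and 71.4 CPM in wild type and at 250, 319 and 270 and at 125, 149 and 142 CPM in Dnmt3a1-/-, and rose by 0.78 ± 0.08 and 0.94 ± 0.08. Klf15, a transcription factor of fasting metabolism, went from 19.1, 21.9 and 22.3 to 38.5, 41.9 and 36.9 CPM and rose by 0.89 ± 0.09 (adjusted p = 6.3e-05). Ddit4, an inhibitor of mTOR signalling, went from 34.5, 37.7 and 34.8 to 63, 66.5 and 59.1 CPM and rose by 0.82 ± 0.07. These 4 genes had no overlap between groups, as had 21 of the 31 members in the higher direction, beside 18.5% of all genes. Hif3a, an inhibitory hypoxia factor named after its values were seen, went from 7.56, 10.8 and 12.6 to 25.8, 26.9 and 33.5 CPM and rose by 1.498 ± 0.17. Fkbp5, a chaperone of the glucocorticoid receptor, was not called at 1.34 ± 0.37 (adjusted p = 0.082), with 21.2, 32.6 and 48.7 CPM in wild type and 65.5, 90.9 and 98.9 CPM in Dnmt3a1-/-. With the replicate block it passed (adjusted p = 0.0009), as it did against all 8 wild type libraries, at 1.54 (adjusted p = 0.002). Plin4 and Angptl4 are members of this list as well as of the PPAR list. With the choroid term 14 members were called higher, and without any 1 of the 6 libraries 15 to 17. Ddit4 was not called against all 8 wild type libraries, at 0.64 (adjusted p = 0.11).

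The promoter of Mt1 is shown for the letters of glucocorticoid receptor sites. Of the 31 members, 26 matched RefSeq's promoter table by symbol, and the windows of 4 of them hold ACANNNTGT, namely Mt1 and Sgk1, which rose, and Lcn2 and Glul, which did not pass. These letters read the same on both strands. By window, 6.85% of all 32851 windows, each from 250 bases before a start to 50 after it, hold them. By gene, 5.35% of the 11571 tested genes with a window hold them, beside 15.4% of the 26 members. The printed bases of Mt1, the 250 before its start, lie at chr8:94178839-94179088, plus strand, build GRCm38.p6, and capitals mark the match.
Mt1: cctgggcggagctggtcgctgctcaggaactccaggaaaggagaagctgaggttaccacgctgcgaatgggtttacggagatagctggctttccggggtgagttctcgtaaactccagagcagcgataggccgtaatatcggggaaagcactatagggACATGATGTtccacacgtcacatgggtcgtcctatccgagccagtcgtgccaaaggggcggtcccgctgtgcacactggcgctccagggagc

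Interferon response genes rose in part, and none fell. Of 49 tested members 14 rose, the median was 0.26, and 44 estimates were above 0. Ifit3, an antiviral protein of the IFIT family, was read at 5.82, 5.48 and 4.87 CPM in wild type and 9.53, 8.06 and 13.2 CPM in Dnmt3a1-/- and rose by 0.93 ± 0.17 (adjusted p = 0.0034). Usp18, which ends interferon signalling, went from 2.06, 2.87 and 2.64 to 4.55, 3.84 and 5.51 CPM and rose by 0.88 ± 0.19 (adjusted p = 0.0069). Lgals3bp, a secreted glycoprotein, rose by 0.67 ± 0.10, and H2-D1, a class I antigen presenting chain, by 0.32 ± 0.07. Library 3 was the highest Dnmt3a1-/- library for Ifit3, Usp18 and Lgals3bp, and library 2 the lowest. Ifit3 resembles Ifit3b closely, so reads of either are uncertain. The number of rising members was 8 without wild type library 2, 8 without wild type library 3 and 6 without Dnmt3a1-/- library 3. Against all 8 wild type cortex libraries it was also 8, with Ifit3 at 0.78 (adjusted p = 0.11) and H2-D1 at 0.25 (adjusted p = 0.3), without wild type library 3 and Dnmt3a1-/- library 1 it was 4, and with the choroid term 0.

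The promoters of Ifit3 and of Isg15, a ubiquitin-like protein of the same response that rose by 0.55 ± 0.17 and is shown after its value was seen, carry the letters of interferon-stimulated elements. The pattern searched was a pair of TTTC tetramers with any 2 bases between them, on both strands, which 3.44% of all 32851 windows hold. By gene, 19 of the 37 interferon members with a window hold it (51.4%), beside 3.67% of the 11571 tested genes with a window. The Ifit3 window lies at chr19:34583279-34583528, plus strand, and the Isg15 window at chr4:156200819-156201068, minus strand, both in build GRCm38.p6 and written in the direction of the gene. Capitals mark the matches, which overlap in Isg15. Called with all 6 libraries (adjusted p = 0.042), Isg15 was not called without any 1 library except Dnmt3a1-/- library 2. It was at 0.26 (adjusted p = 0.46) against all 8 wild type libraries.
Ifit3: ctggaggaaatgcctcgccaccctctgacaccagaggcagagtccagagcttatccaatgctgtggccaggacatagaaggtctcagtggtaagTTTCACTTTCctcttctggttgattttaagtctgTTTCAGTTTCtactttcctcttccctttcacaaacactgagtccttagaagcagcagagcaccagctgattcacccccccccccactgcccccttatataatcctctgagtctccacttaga
Isg15: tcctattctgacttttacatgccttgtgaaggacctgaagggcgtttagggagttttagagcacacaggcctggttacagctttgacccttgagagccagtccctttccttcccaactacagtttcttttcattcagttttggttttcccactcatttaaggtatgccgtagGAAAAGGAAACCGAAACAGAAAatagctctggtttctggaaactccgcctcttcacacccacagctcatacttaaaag

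Complement was called for 3 of 24 tested members, all higher (12.5%). C4b, a component of the classical pathway, was read at 13.2, 15.6 and 12.8 CPM in wild type and 26.7, 29.4 and 30.4 CPM in Dnmt3a1-/- and rose by 1.05 ± 0.10 (adjusted p = 4.5e-05). Cd59a, which blocks the membrane attack complex, rose by 0.54 ± 0.12. Clu, an extracellular chaperone that binds the terminal components, rose by 0.22 ± 0.06, a call lost without wild type library 2 or 3 or Dnmt3a1-/- library 1 or 2. Only C4b was called with the choroid term, and 5 members rose with the replicate block. C4b reads can be shared with its close copy C4a, so the gene is uncertain as to copy.

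Genes of neurotransmitter receptors fell in large part. Of 40 tested subunits of glutamate, GABA and glycine receptors 23 fell, 0 rose, and the median was -0.30. Grin2b, an NMDA receptor subunit, was read at 15.6, 19 and 21.7 CPM in wild type and 8.35, 11.6 and 10.9 CPM in Dnmt3a1-/- and fell by 0.84 ± 0.14 (adjusted p = 0.0018). Grm7, a presynaptic metabotropic receptor, went from 36.1, 39.2 and 40.9 to 25.9, 25.2 and 25.4 CPM and fell by 0.60 ± 0.08. The order of the wild type libraries was 1, 2, 3 from low to high in both genes, and all Dnmt3a1-/- libraries were below them. Without wild type library 3 the list had 13 falling members, and without wild type library 2 it had 14. Grm7 was called with the choroid term and Grin2b was not.

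Ion channels showed the same direction. Of 63 tested potassium channel subunits 25 fell and 1 rose, with a median of -0.29. Kcnj10, the potassium channel of astrocytes and of other glia, was read at 627, 594 and 652 CPM in wild type and 332, 357 and 369 CPM in Dnmt3a1-/- and fell by 0.82 ± 0.07 (adjusted p = 1.3e-05). Kcnh7, a channel of the ether-a-go-go family, went from 84.9, 99.1 and 116 to 48.5, 47.2 and 57.7 CPM and fell by 0.96 ± 0.11. Kcnj3, a channel opened by G proteins, fell by 0.65 ± 0.09. The member that rose was Kcnt1, a sodium-activated channel, by 0.51 ± 0.08. Of 37 tested sodium, calcium and HCN channel subunits 18 fell and 2 rose, with a median of -0.32. Scn2b, a sodium channel subunit, fell by 0.50 ± 0.07, Cacna1i by 0.47 ± 0.08 and Cacna2d1 by 0.51 ± 0.09. Of the 2 that rose, Cacna1h, a low-voltage calcium channel, differed by 0.48 ± 0.11 and Cacna1d by 0.25 ± 0.07. Both were lost without wild type library 3 or Dnmt3a1-/- library 2, Cacna1h also without Dnmt3a1-/- library 3, and Cacna1d also without wild type library 1 or Dnmt3a1-/- library 1. The potassium channels named here were called with the choroid term, and the sodium and calcium channels were not. Kcnj10 was at -0.54 against all 8 wild type libraries and still called.

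Proteins of vesicle release and synaptic scaffolds fell in 20 of 61 tested members and rose in 2, with a median of -0.18. Pclo, a scaffold of the release site, was read at 116, 127 and 145 CPM in wild type and 75.3, 73.5 and 87 CPM in Dnmt3a1-/- and fell by 0.72 ± 0.09 (adjusted p = 0.00037). Unc13a, which primes vesicles, fell by 0.48 ± 0.08, Shank1, a scaffold below the receptors, by 0.46 ± 0.06, and Lrfn5, an adhesion protein of synapses, by 0.49 ± 0.08. With the replicate block 33 members fell, and without wild type library 3 it was 13. The 2 rising members numbered 0 without wild type library 2 or 3 or Dnmt3a1-/- library 2. Of 43 neuropeptides and neurotrophic factors 11 fell and 0 rose, with a median of -0.21, and with the block 23 fell. Bdnf, a neurotrophin, went from 21.5, 24.4 and 30.4 to 13.9, 16.1 and 16.2 CPM and fell by 0.70 ± 0.12, Cck, a peptide of interneurons and pyramidal cells, fell by 0.41 ± 0.09, and Pnoc, the nociceptin precursor, by 0.66 ± 0.15. Without wild type library 3 and Dnmt3a1-/- library 1 together, 8 members of the vesicle and scaffold list and 2 of the peptide list were called lower, and 10 of the receptor, 11 of the potassium and 7 of the sodium and calcium channel list. The choroid term left 2, 0, 3, 4 and 0 lower members in the 5 lists in that order, Pclo and Shank1 being the 2.

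Adhesion proteins that give neurons their surface identity fell in part. Each of the 23 tested clustered protocadherins had an estimate below 0, with a median of -0.48, and 6 passed; with the replicate block 13 passed, without wild type library 1 it was 10, and with all 8 wild type libraries 13, whereas without wild type library 3 and Dnmt3a1-/- library 1 it was 3 and with the choroid term 1. The list has 58 genes, of which 24 were found in the files by symbol. Pcdha11 was read at 154, 181 and 193 CPM in wild type and 116, 118.5 and 122 CPM in Dnmt3a1-/- and fell by 0.57 ± 0.08, and Pcdhb3 fell by 0.77 ± 0.16. These genes share exons or resemble each other closely, so the reads of single members are uncertain. Of 38 non-clustered cadherins and protocadherins 14 fell and 0 rose, with a median of -0.26, but 5 fell without wild type library 3 and Dnmt3a1-/- library 1, and 1 with the choroid term. Pcdh20 went from 30.7, 28.5 and 33.8 to 20.1, 17.8 and 22.6 CPM and fell by 0.62 ± 0.10, Cdh9 fell by 0.58 ± 0.10 and Cdh10 by 0.47 ± 0.08, in addition to Pcdh12 above. Of the genes named here only Pcdh12 was called with the choroid term.

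Axon guidance genes fell in 14 of 65 tested members and rose in 1, with a median of -0.10. Sema3a, a secreted repellent, was read at 29.5, 32.4 and 36.3 CPM in wild type and 17.4, 17.8 and 21.3 CPM in Dnmt3a1-/- and fell by 0.79 ± 0.10 (adjusted p = 0.00039). Nrp1 and Plxna4, parts of its receptor, fell by 0.44 ± 0.07 and 0.47 ± 0.08. The rising member was Sema3b, from 2.79, 3.99 and 1.89 to 8.86, 6.73 and 7.27 CPM (1.34 ± 0.21, adjusted p = 0.0016). With the replicate block 25 members fell and 7 rose, and without wild type library 2, or without wild type library 3 and Dnmt3a1-/- library 1, it was 8 that fell. With the choroid term there were 3 lower members, Sema3a and Nrp1 among them, and 0 higher. Against all 8 wild type libraries the median was 0.00, 3 rose, and Nrp1 was not called at -0.23 (adjusted p = 0.22).

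Subunits of Polycomb and trithorax complexes, which hold chromatin silent or open, rose in 8 of 35 tested members and fell in 0, with a median of 0.11. Pcgf2, a subunit of the first Polycomb complex, was read at 10.6, 11.3 and 9.34 CPM in wild type and 15.2, 16.4 and 15.8 CPM in Dnmt3a1-/- and rose by 0.60 ± 0.10 (adjusted p = 0.0018). Phc1 and Cbx7 of the same complex rose by 0.32 ± 0.06 and 0.39 ± 0.09, and Kmt2b, a trithorax methyltransferase, by 0.43 ± 0.09. The count was 5 without wild type library 1, 5 without wild type library 3 and Dnmt3a1-/- library 1, 4 with all 8 wild type libraries, where Pcgf2 was at 0.27 (adjusted p = 0.28), and 0 with the choroid term. Developmental transcription factors, known targets of Polycomb, had 72 listed genes, of which the filter on low counts left 37; 3 rose and 0 fell, a share of 8.11% close to the background. Gata2 rose by 0.60 ± 0.13, and Meis1 (0.53 ± 0.16) and Pax6 (0.32 ± 0.10) were each lost in at least 5 of the 6 fits that left out 1 library; none of the 3 was called with the choroid term.

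Imprinted genes, expressed from 1 parental copy under control of DNA methylation, were called in both directions: 9 of 41 tested rose and 6 fell, with a median of 0.07. Meg3, a maternally expressed noncoding RNA, was read at 1010, 1313 and 1082 CPM in wild type and 1839, 1717 and 1683 CPM in Dnmt3a1-/- and rose by 0.62 ± 0.09. Peg3, a paternally expressed zinc finger protein, went from 150, 174 and 163 to 224, 230 and 230 CPM and rose by 0.49 ± 0.07. Mest and Sgce, both paternally expressed, fell by 0.69 ± 0.09 and 0.60 ± 0.09. Meg3 was lost with all 8 wild type libraries, at 0.11 (adjusted p = 0.76), and without Dnmt3a1-/- library 2 there were 3 falling members. The choroid term left 5 rising members, Meg3 and Peg3 among them, and Mest as the 1 that fell. Germline genes, a class that DNA methylation is known to silence, had 17 tested of 38 listed; 3 rose and 0 fell, with a median of 0.50, and with the replicate block 5 rose. Rec8, a meiotic cohesin subunit, went from 3.8, 3.8 and 2.41 to 6.41, 12 and 7.15 CPM and rose by 1.36 ± 0.26, and Stag3, another, by 0.77 ± 0.19. Tdrd5, a protein of the piRNA machinery, rose by 1.14 ± 0.30, a call lost without wild type library 2 or Dnmt3a1-/- library 2 or 3. None of the 3 germline genes was called with the choroid term. There Rec8 was at 1.46, Tdrd5 at 1.425 and Stag3 at 0.56, and the median of the list was 0.65. Stag3 and Tdrd5 were not called against all 8 wild type libraries, at 0.67 (adjusted p = 0.082) and 0.74 (adjusted p = 0.067).

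Lists of secreted growth factors held called genes at shares not far from the background. Of 50 BMP and TGF-beta signalling genes 7 rose (14%) and 6 fell (12%). Gdf10, a ligand of the family, was read at 9.7, 10.6 and 9.23 CPM in wild type and 21.8, 22.4 and 23.1 CPM in Dnmt3a1-/- and rose by 1.19 ± 0.09 (adjusted p = 1.3e-05). Chrd, a BMP antagonist, rose by 0.68 ± 0.10 and Bmp1, a protease that cleaves it, by 0.58 ± 0.08, while Chrdl1, another antagonist, fell by 0.53 ± 0.09. Of 55 Wnt ligands, receptors and antagonists 6 rose (10.9%) and 7 fell (12.7%), with a median of -0.02. Wnt10b rose by 1.58 ± 0.26 from 0.566, 0.894 and 0.688 to 2.61, 2.32 and 1.76 CPM, Wnt7a fell by 0.74 ± 0.11, the antagonist Frzb went from 21.8, 26 and 27.2 to 12.2, 12.4 and 13 CPM and fell by 0.99 ± 0.10, and the activator Rspo2 fell by 0.80 ± 0.13. With the replicate block 12 BMP and TGF-beta genes rose and 11 fell. Without wild type library 3 there were 3 falling genes of that list, and without wild type library 2 or Dnmt3a1-/- library 2 there were 3 rising Wnt genes. The choroid term left 3 rising and 1 falling genes of the first list and 1 and 2 of the Wnt list. Of 33 genes of growth hormone, insulin and IGF signalling 4 rose and 4 fell, 12.1% each. Among carriers of IGF, Igfbp3 went from 40.7, 38.2 and 50.8 to 85, 116 and 130 CPM (1.36 ± 0.18) and Igfbp2 from 47.1, 50.6 and 37.5 to 28.8, 23.5 and 23.8 CPM (-0.84 ± 0.11). Pappa2, a protease that frees IGF from such carriers, fell by 1.26 ± 0.26. Without Dnmt3a1-/- library 2 the list had 2 rising and 2 falling members, without wild type library 1 it had 2 rising, with the block 7 rising, and with the choroid term 1 rising and 1 falling. Of the genes named here Wnt7a and Pappa2 were lost with that term, and Bmp1 was at 0.27 (adjusted p = 0.28) against all 8 wild type libraries.

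In lists of glucose use, hormone response, clock and lysosome, the shares of called genes ran from under the background to above it. Of 34 hypoxia-induced and glycolytic genes 4 rose (11.8%) and 5 fell (14.7%), and with the replicate block 8 rose and 11 fell. Slc2a1, the glucose transporter of the blood-brain barrier, was read at 249, 277 and 305 CPM in wild type and 337, 453 and 394 CPM in Dnmt3a1-/- and rose by 0.51 ± 0.11 (adjusted p = 0.0097). The glycolytic enzymes Pgk1, Ldha and Pgam1 fell by 0.33 ± 0.06, 0.33 ± 0.07 and 0.35 ± 0.08. Rising members numbered 2 without wild type library 2 or 3. With the choroid term 2 rose and 0 fell, as without wild type library 3 and Dnmt3a1-/- library 1. Against all 8 wild type libraries 8 fell, Pgk1 at -1.05 and Pgam1 at -1.33, and Slc2a1 was not called at 0.57 (adjusted p = 0.099). Of 23 genes of thyroid hormone transport and response 4 rose and 4 fell (17.4% each), 9 fell with the block, and 2 rose and 2 fell with the choroid term. Thra, a receptor of the hormone, went from 724, 696 and 686 to 919, 934 and 864 CPM and rose by 0.37 ± 0.06, and Itih3, a secreted matrix-binding protein, rose by 0.60 ± 0.09. Of 22 clock genes 3 rose and 0 fell, with 8 rising with the block and 6 without Dnmt3a1-/- library 3; the casein kinase Csnk1e rose by 0.28 ± 0.06, and it was lost with the choroid term, without wild type library 3 and Dnmt3a1-/- library 1, and against all 8 wild type libraries (0.18 (adjusted p = 0.084)). Of 36 lysosomal genes 2 rose (5.56%) and 3 fell (8.33%), both under the background, with 4 rising and 7 falling with the block, and Hexa, a subunit of hexosaminidase, fell by 0.53 ± 0.07 from 77.7, 71.4 and 80.9 to 55.6, 52.8 and 51.1 CPM. Falling lysosomal genes numbered 5 without wild type library 1, and rising ones 1 without any 1 wild type library.

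Vessel growth genes fell in 9 of 39 tested members and rose in 3, with a median of -0.13. Besides Aplnr, Apln and Pcdh12, Tie1, a receptor kinase of endothelium named after its value was seen, fell by 0.49 ± 0.10. Endothelial markers fell in 9 of 39 and rose in 3, with a median of -0.05: Emcn, a sialomucin of veins and capillaries, fell by 0.67 ± 0.12, Itm2a by 0.52 ± 0.08, and Slco1c1, the thyroxine carrier of the blood-brain barrier, by 0.46 ± 0.07. The markers that define endothelium, Cldn5, Pecam1 and Cdh5, were not called. With all 8 wild type libraries 5 vessel growth genes and 4 endothelial markers fell and the medians turned to 0.08 and 0.02; Tie1 was at -0.41 (adjusted p = 0.093), Emcn at -0.42 (adjusted p = 0.12) and Itm2a at -0.39 (adjusted p = 0.055). Called lower with the choroid term were 3 and 5 members of these lists, and not Tie1. Rising vessel growth genes numbered 1 without wild type library 2 or 3 or Dnmt3a1-/- library 2, and rising endothelial markers 5 without wild type library 1; with the block both lists had 6. Matrix genes rose in 13 of 61 and fell in 3, with a median of 0.04. Col6a1, a chain of beaded filaments, was read at 40.2, 53.7 and 40.9 CPM in wild type and 102, 110 and 94.4 CPM in Dnmt3a1-/- and rose by 1.18 ± 0.11, Col9a2 rose by 1.10 ± 0.14 and Col23a1, a membrane-bound collagen, by 0.79 ± 0.10. Ncan, a proteoglycan of brain matrix, fell by 0.55 ± 0.06. Col6a1 was not called against all 8 wild type libraries, at 0.51 (adjusted p = 0.26). Rising matrix genes numbered 6 with the choroid term, where the median was -0.06. Falling matrix genes numbered 8 with the block, 6 without wild type library 3 and 1 without wild type library 2 or Dnmt3a1-/- library 1 or 3.

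Genes of dividing cells fell in 10 of 45 tested members and rose in 3, with a median of -0.15. Mki67, found in cycling nuclei, was read at 5.38, 5.1 and 5.39 CPM in wild type and 2.11, 2.36 and 2.83 CPM in Dnmt3a1-/- and fell by 1.09 ± 0.16. Top2a, which untangles replicated DNA, went from 6.35, 6.93 and 6.25 to 2.19, 3.39 and 3.52 CPM and fell by 1.05 ± 0.16. Ccnd1, a cyclin of the first gap phase, fell by 0.47 ± 0.08. The number of falling members was 5 without wild type library 1, 6 without wild type library 2 or 3 or Dnmt3a1-/- library 1, 4 without Dnmt3a1-/- library 2 and 7 without Dnmt3a1-/- library 3. The 3 that rose, Mcm7, Hmgb2 and Cdk2, numbered 0 or 1 in each such fit. The choroid term left 4 falling members, Mki67, Top2a and Ccnd1 among them, and by DESeq2 it was 6. Of genes whose expression rises late in cortical maturation 14 of 33 fell and 4 rose, with a median of -0.22, and of immature neuron genes 7 of 31 fell and 2 rose, with a median of -0.04. The choroid term left 2 falling and 1 rising late genes and 1 falling immature neuron gene, and without wild type library 3 and Dnmt3a1-/- library 1 it was 5 late genes that fell. Hapln4, a link protein of the nets around fast neurons and a late gene, went from 60.4, 70 and 73.4 to 30.7, 40.2 and 36.5 CPM, fell by 0.91 ± 0.10, and was called in both of these fits. Nefh and Nefm, neurofilaments of mature axons, fell by 0.52 ± 0.08 and 0.48 ± 0.07, and Tubb3 and Tubb2a, tubulins of young neurons, by 0.35 ± 0.07 and 0.32 ± 0.07. These 4 were at -0.81, -0.92, -0.70 and -0.68 against all 8 wild type libraries, all called; none was called with the choroid term. Without Dnmt3a1-/- library 2 or 3 there were 4 falling immature neuron genes, and with the block 5 rising. Rising late genes numbered 1 without Dnmt3a1-/- library 2 and 2 without wild type library 1 or 3 or Dnmt3a1-/- library 3.

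Chaperones and genes of the unfolded protein response fell in 12 of 42 tested members and rose in 0, with a median of -0.30. Hsph1, a heat shock protein of the HSP110 family, was read at 158, 161 and 216 CPM in wild type and 96.9, 90.9 and 97.8 CPM in Dnmt3a1-/- and fell by 0.91 ± 0.11 (adjusted p = 0.00048). Hspa4 fell by 0.48 ± 0.07, the mitochondrial Hspd1 by 0.42 ± 0.07, and Asns, which makes asparagine, by 0.49 ± 0.07. Wild type library 3 was the highest for Hsph1, Hspa4 and Asns. With the replicate block 25 members fell, without wild type library 1 or against all 8 wild type libraries it was 22, and with no filter on low counts 23. Only Hsph1 was called lower with the choroid term.

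Ribosomal protein genes rose in 11 of 63 tested members and fell in 0, with a median of 0.13. Rps26 went from 61, 62.2 and 62.1 to 76.2, 78.1 and 72.4 CPM and rose by 0.29 ± 0.06 (adjusted p = 0.0072). The count was 31 with the replicate block, 1 without wild type library 2 or 3, and 2 without Dnmt3a1-/- library 1 or 2. With all 8 wild type libraries the median was -0.13, while 5 members were still called higher and 0 lower, and Rps26 was at 0.17 (adjusted p = 0.23). With the choroid term, and without wild type library 3 and Dnmt3a1-/- library 1, it was 0 that were called higher. Ribosomal proteins have many processed copies in the genome, so single genes are uncertain. Nuclear genes of oxidative phosphorylation fell in 5 of 72 (6.94%, under the background) and rose in 0, and Cox5a fell by 0.34 ± 0.06 from 109, 109 and 109 to 87, 84.8 and 85.6 CPM. With the block 11 of them fell, 9 against all 8 wild type libraries, 2 or 3 without wild type library 1 or 3 or Dnmt3a1-/- library 1 or 3, and 0 with the choroid term. Cox5a was at -0.22 (adjusted p = 0.14) against all 8 wild type libraries.

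Fos is an immediate early gene, which neurons switch on within minutes of activity. It was read at 35, 13 and 10.2 CPM in wild type and 53.1, 22.1 and 18.5 CPM in Dnmt3a1-/-, so library 1 was the highest in both groups and each Dnmt3a1-/- library was above the wild type library of its number. It was not called at 0.62 ± 0.72 (adjusted p = 0.63) and passed with the replicate block (adjusted p = 8.8e-07). Nr4a1 was read at 71.8, 35 and 28.9 against 111, 62.4 and 52.3 CPM, with adjusted p of 0.44 and, with the block, 2.2e-08. Both were chosen after their values were seen. Of 32 tested immediate early genes 2 rose, Maff by 0.98 ± 0.17 and Gadd45g by 0.84 ± 0.13, and 0 fell; with the block 14 rose and 4 fell, and without Dnmt3a1-/- library 3 it was 4 that rose. The median of 0.21 turned to -0.05 without Dnmt3a1-/- library 1 and to -0.04 with the choroid term, where Gadd45g was not called.

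Markers of the main cortical cell types were checked in each library. Excitatory and layer markers summed to 2485 to 2726 CPM in wild type and 2320 to 2577 CPM in Dnmt3a1-/-, with 5 of 34 higher and 4 lower. Neurod6, a transcription factor of excitatory neurons, was read at 18.3, 16.8 and 18.6 CPM in wild type and 10.3, 10.5 and 12.1 CPM in Dnmt3a1-/- and fell by 0.69 ± 0.10. Calb1 fell by 0.55 ± 0.08, and Otof, the calcium sensor otoferlin, rose by 0.80 ± 0.10. Slc17a7, the vesicular glutamate transporter, was not called at -0.16 ± 0.07 (adjusted p = 0.14) and was with the block (adjusted p = 0.014). It was also called against all 8 wild type libraries, at -0.2455 (adjusted p = 0.043). With the block 10 excitatory markers fell, and without wild type library 1 there were 7 falling and 3 rising. Against all 8 wild type libraries 7 fell, Neurod6 at -1.22, and with the choroid term 2 rose. Of 37 inhibitory markers 7 fell and 1 rose, Gad2 falling by 0.31 ± 0.08 and Reln by 0.30 ± 0.07. There were 12 falling with the block, 4 without wild type library 3 or against all 8 wild type libraries, and 1 with the choroid term. Without wild type library 3 and Dnmt3a1-/- library 1 together 1 fell, and neither Gad2 nor Reln was called. Gad2 was lost without wild type library 3 or Dnmt3a1-/- library 1 or 2, and Reln without wild type library 2 or 3 or Dnmt3a1-/- library 1; both were lost with the choroid term and against all 8 wild type libraries, at -0.33 (adjusted p = 0.071) and -0.15 (adjusted p = 0.31). Gad1 and Slc32a1, which also define inhibitory neurons, were not called.

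Glial markers went both ways within a type. Of 35 astrocyte markers 10 rose and 4 fell: Fam107a, an actin-binding stress protein, went from 1159, 1083 and 1288 to 1576, 1616 and 1672 CPM and rose by 0.46 ± 0.07, and Aqp4, the water channel of endfeet, went from 318, 288 and 341 to 228, 205 and 233 CPM and fell by 0.51 ± 0.08. Mt1, Mt2 and Agt are counted in this list too. The count of rising members was 6 without wild type library 2 or Dnmt3a1-/- library 2 and 5 without Dnmt3a1-/- library 1 or with the choroid term. It was also 5 without wild type library 3 and Dnmt3a1-/- library 1 together. Slc1a3, the glutamate transporter of astrocytes, was not called. Aqp4 was at -0.22 (adjusted p = 0.32) against all 8 wild type libraries, where 1 astrocyte marker fell, and was not called with the choroid term. Of 32 microglia markers 4 fell and 0 rose. Fcrls and Olfml3 fell by 0.75 ± 0.11 and 0.76 ± 0.12, while Cx3cr1, P2ry12 and Tmem119, which define the type, were not called. Without wild type library 1 or Dnmt3a1-/- library 2 there were 2 falling microglia markers, with the choroid term also 2, against all 8 wild type libraries 2 falling and 2 rising, and with the block 8 falling and 4 rising. Of 35 myelin markers 5 rose and 2 fell, with Mog not called; without wild type library 1 or 3 or Dnmt3a1-/- library 2 it was 2 that rose, and without Dnmt3a1-/- library 3 it was 3. Myelin markers were called in 0 cases with the choroid term. With the block 9 myelin markers rose and 4 fell, and 7 astrocyte markers fell. Of 21 precursor markers 3 rose and 3 fell, and Pdgfra was not called; there was 1 rising without wild type library 3 or Dnmt3a1-/- library 2, and 1 falling without wild type library 2 or 3 or Dnmt3a1-/- library 1 or 2.

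Tissue next to the cortex and blood differed between libraries. Choroid plexus markers summed to 690.7 to 1606 CPM in wild type and 1565 to 3018 CPM in Dnmt3a1-/-; 3 of 28 tested were called, all higher, 27 of 28 estimates were above 0, the median was 0.86, and 0 of the 29 found in the files were at 0 in all libraries. Ttr, the thyroxine carrier that this tissue secretes, was at 483, 705 and 112 CPM in wild type and 1907, 783 and 1142 CPM in Dnmt3a1-/- and was not called. The called count was 5 without wild type library 2, 7 without Dnmt3a1-/- library 2, 1 without Dnmt3a1-/- library 1 or 3, and 13 with all 8 wild type libraries. Wild type library 2 and Dnmt3a1-/- library 2 held close to the same sum, 1606 and 1565 CPM. With the mean log2 CPM of the choroid plexus markers as a term the count was 371, with 358 shared with the 2845; the markers' mean ran from 1.45 to 2.88 in wild type and from 2.78 to 3.65 in Dnmt3a1-/-, so this term and the genotype cannot be told apart in full. Striatum markers summed to 1577 to 1730 CPM in wild type and 844.5 to 1790 CPM in Dnmt3a1-/-, lowest in library 1, with 1 of 25 called, lower, and 10 lower without Dnmt3a1-/- library 3. Blood cell transcripts summed to 791 to 1118 CPM in wild type and 589.6 to 774.7 CPM in Dnmt3a1-/-, with 3 of 15 called, all lower, 6 without wild type library 2, 1 without wild type library 1 or Dnmt3a1-/- library 3 and 0 without Dnmt3a1-/- library 1. Markers of mural, fibroblast and meningeal cells summed to 1454 to 2315 and 1469 to 1568 CPM, with 5 of 34 called, all lower, and 11 without wild type library 3; the median of -0.16 turned to 0.14 without wild type library 1, where 4 rose, and to 0.13 with all 8 wild type libraries, where 1 fell. Lum, Col1a1, Rgs5, Igfbp2 and Ccn3 are the 5. Ependymal markers summed to 73.48 to 82.66 and 89.76 to 94.64 CPM. The part of these lists in the results above was not tested further. Without wild type library 3 and Dnmt3a1-/- library 1, the libraries with the lowest and the highest Ttr, the count was 1109, and 1033 of these genes were among the 2845.

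**Figure D4:**
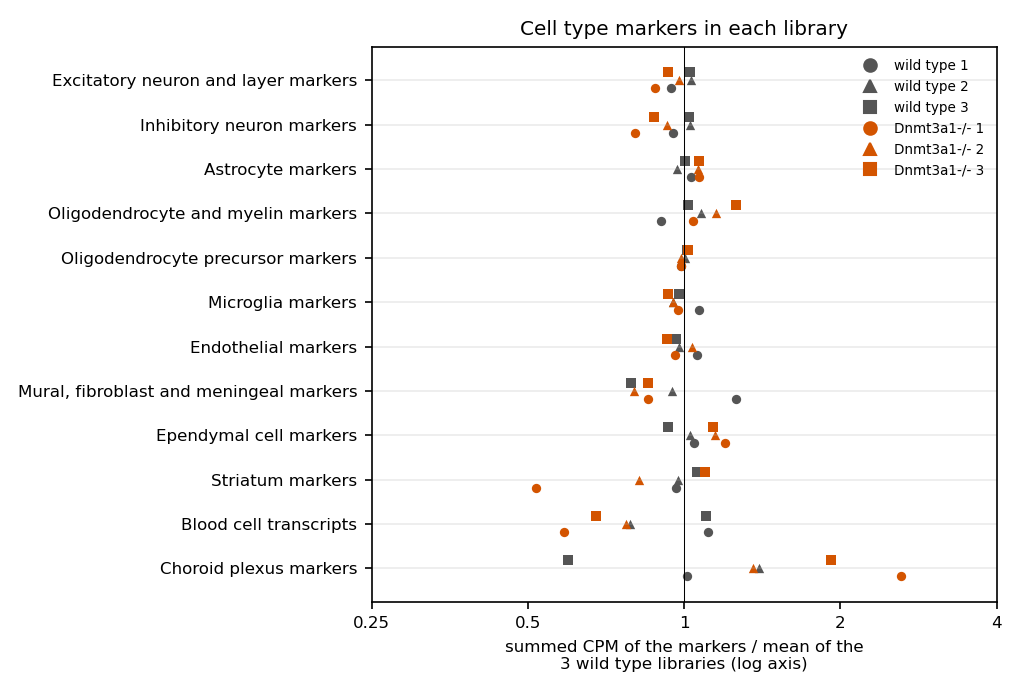
Summed CPM of the markers of each cell type in each library, over the mean of the 3 wild type libraries, on a log axis. Grey is wild type, orange Dnmt3a1-/-, and circles, triangles and squares are libraries 1, 2 and 3; neuronal and glial sums lie close to 1, while choroid plexus, striatum and blood sums spread most, with library 2 of both groups at nearly the same choroid plexus sum.

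Hippocampus of the same genotype gave fewer calls in the same directions. There 396 of 15727 genes tested were called (2.52%), 266 higher (1.69%) and 130 lower (0.827%). Of the 1426 genes higher in cortex 1335 had a value in hippocampus and 94.4% of these were also above 0, and of the 1419 lower in cortex 93.5% of 1378 were below 0, beside 75% with the same sign over all genes. Called in both were 189 higher and 97 lower genes, and 0 were called in opposite directions. Choroid plexus markers, at a median of 0.86 in cortex, had a median of 1.22 in hippocampus, with 0 called there. No hippocampus fit had the choroid term, and the part of this tissue in the shared signs was not tested. Angptl4 was read at 2.57, 3.59 and 3.32 CPM in wild type hippocampus and 12.2, 16.6 and 12.5 CPM in Dnmt3a1-/- hippocampus and rose by 2.08 ± 0.18 (adjusted p = 0.00011), and Gpnmb went from 4.21, 4.21 and 2.7 to 12.1, 13 and 9.85 CPM, a rise of 1.65 ± 0.19. Kcng4 went from 14.4, 12.6 and 12.5 to 6.97, 6.38 and 7.07 CPM and fell by 0.94 ± 0.13. The glucocorticoid-induced list had 12 called higher members in hippocampus and a median of 0.47. Cholesterol biosynthesis had 5 lower members and a median of -0.32, while the interferon list had a median of 0.01, with 0 higher and 1 lower, and the receptor subunits a median of -0.12, with 2 lower.

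The difference of the genotype effect between cortex and hippocampus was tested for 15433 genes and called for 0 by edgeR and by limma-voom. By edgeR 777 of them had an unadjusted p under 0.05, close to the share of 0.05 met where no gene differs. Genes whose estimates lay far apart between the tissues were picked after their values were seen, and were not called: Abi3bp was at -1.02 ± 0.22 in cortex and 0.39 ± 0.28 in hippocampus (adjusted p of the difference = 0.58), Sema3a at -0.79 ± 0.10 and 0.08 ± 0.24 (adjusted p = 0.59) and C1ql3, a synaptic organiser, at -0.85 ± 0.15 and -0.06 ± 0.14 (adjusted p = 0.75). Sema3a was at 1.64, 2.64 and 2.35 CPM in wild type hippocampus. The labels do not say whether cortex and hippocampus came from the same animals.

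**Figure D5:**
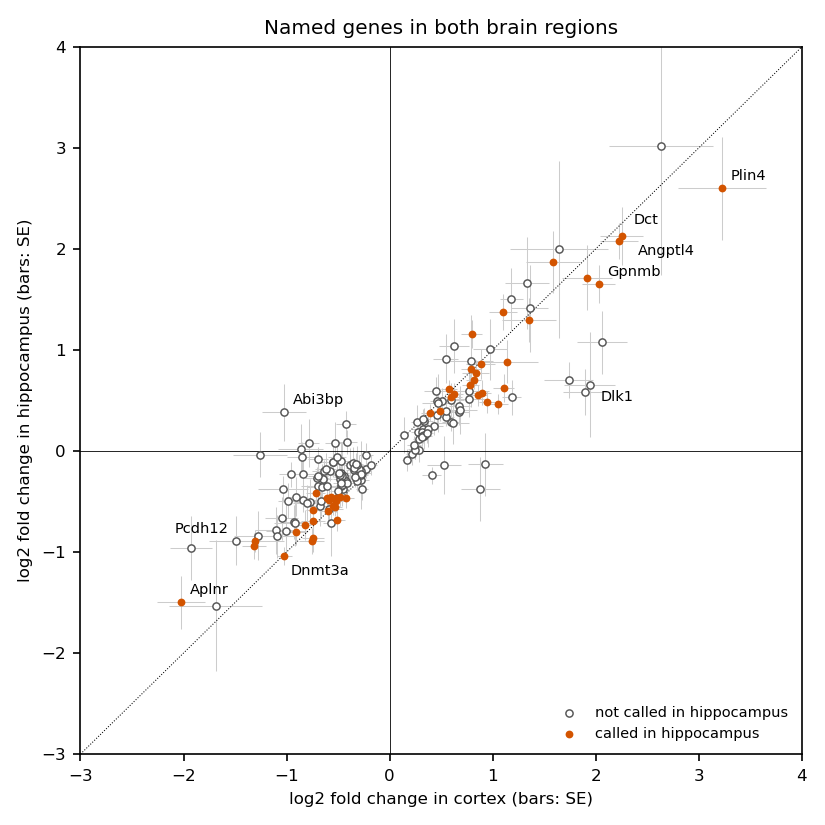
Log2 fold change of Dnmt3a1-/- over wild type in hippocampus (vertical axis) against cortex (horizontal axis) for 182 named genes called in cortex, with bars for the SE and a dotted line of equal change. Filled points are the 47 called in hippocampus; 170 of the genes have the same sign in both regions, and Abi3bp is among those that do not.

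The Dnmt3a1_delta_N mutant, compared with wild type libraries n1 to n3, gave 0 calls among 15881 genes tested by edgeR and 0 by limma-voom, with 1267 genes at an unadjusted p under 0.05. Of the genes called in Dnmt3a1-/- cortex, 83.6% of the higher and 89.3% of the lower ones had the same sign in Dnmt3a1_delta_N, beside 67.1% of all genes. Choroid plexus markers had a median of 0.63 in Dnmt3a1_delta_N, and their part in these shares was not tested. The difference between the effects of the mutants was called for 17 of 16456 genes (0.103%), 14 higher (0.0851%) and 3 lower (0.0182%) in Dnmt3a1-/-, with 1868 at an unadjusted p under 0.05 and 18 called by limma-voom. Mrpl41, a protein of the mitochondrial ribosome, was read at 23.3, 25.3 and 24.2 CPM in the wild type and 45.4, 44.4 and 46.1 CPM in the Dnmt3a1-/- libraries (0.90 ± 0.07), and at 34.9, 32.3 and 34.7 CPM in the wild type and 37, 30.3 and 35.6 CPM in the Dnmt3a1_delta_N libraries (0.01 ± 0.08). The difference was 0.89 ± 0.11 (adjusted p = 0.0026). Scara3, a scavenger receptor, rose by 0.88 ± 0.07 in Dnmt3a1-/- and was at 0.20 ± 0.07 in Dnmt3a1_delta_N (adjusted p of the difference = 0.0029), and Thbs4, a thrombospondin of the matrix, at 1.22 ± 0.10 and 0.30 ± 0.08 (0.003). Ddit4 was at 0.82 ± 0.07 and -0.10 ± 0.11 (0.0089), Acacb at 1.11 ± 0.10 and -0.07 ± 0.15 (0.022) and Mt2 at 0.94 ± 0.08 and -0.08 ± 0.14 (0.038). On the lower side were Dnmt3a itself at -1.02 ± 0.07 and -0.18 ± 0.07 (0.0026), Kcnj10 at -0.82 ± 0.07 and -0.20 ± 0.09 (0.044) and Nectin3, an adhesion protein, at -0.64 ± 0.08 and -0.05 ± 0.07 (0.044). Dct, at 2.25 ± 0.21 and 1.08 ± 0.26, and Gpnmb, at 2.03 ± 0.16 and 0.99 ± 0.23, were not called in this difference (adjusted p = 0.27 and 0.21). The count of 17 was 479 with the replicate block, 184 without Dnmt3a1_delta_N library 1, 19 without wild type library 1, 12 without wild type library n2, and 4 to 9 without any 1 of the other 9. Each mutant was compared with its own wild type libraries, and a difference between the series of libraries that touches a mutant and not its controls cannot be told apart from the mutant.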

How the data were processed

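RNA of whole cortex was purified together with DNA from the same material and made into stranded mRNA libraries, per the labels' protocols. Per the submitters' processing notes, STAR 2.5.4a, HTSeq 0.11.0 and the mm9 build were used; the annotation release and the strand setting are not given in the sources used here, and genes that overlap, on either strand, may hold each other's reads. The authors deposited counts, whole reads per gene, 1 file per library, with gene identifiers and no normalization. Rows that name no gene held 27.3% to 30.19% of the reads and were left out. Of 37310 identifiers, 32620 had a symbol in the gene name table.

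The 6 libraries, with 11745576 to 26832653 counts each, were fitted with edgeR 4.0.16 in R 4.3.3 (filterByExpr, TMM scaling, robust quasi-likelihood F-test, Benjamini-Hochberg adjustment, threshold 0.05). CPM are TMM-scaled, log2 changes are Dnmt3a1-/- minus wild type, and the SE is the size of the change over the square root of F. The scripts were tested on simulated data. Hippocampus, Dnmt3a1_delta_N and the 2 differences of effects were fitted in the same way. The labels give both groups the same numbers without saying what they share. Deviations from the group means correlated at 0.237, 0.376 and 0.184 for same-numbered libraries and at -0.237 to -0.0111 for the others. As deviations within a group cancel out, positive values for same-numbered libraries bring negative ones among the others. The replicate block takes the numbers as pairs, from the data and not the labels. Adjusted p printed without mention of the block come from fits that do not pair. For hippocampus and Dnmt3a1_delta_N, which the block of the differences of effects also pairs by number, no such correlation was computed. Library 2 of both groups was female.

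Named genes were Dnmt3a, 12 called higher and 12 called lower genes by size of change (among those whose groups did not overlap and whose mean log2 CPM reached 1), the 5 most abundant called in each direction, up to 4 called members with the smallest p per list, and up to 5 per difference of effects. Others (neighbours of Dnmt3a, defining markers, Hif3a, Fkbp5, Fos, Nr4a1, Ttr, Isg15, Srebf1, Srebf2, Tie1, Kcnt1, Cacna1h, Cacna1d, Slc2a1 and methylation genes that were not called) were chosen after their values were seen. Some genes that these rules name are not reported here. The comparison and the 49 lists were chosen with earlier results of these data known. Alternatives were DESeq2 1.42.0, limma-voom 3.58.1, RLE scaling, no or a stricter filter, a replicate block, sex or choroid plexus markers as a term, all 8 wild type cortex libraries, and leaving out each library. Chromatin and DNA methylation samples were not analysed here.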

Additional observations from a re-analysis of the deposited data

Results flagged for a closer look

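The share of reads outside the genes that the comparisons use did not overlap between the groups, and this was not tested. Of uniquely aligned reads, the share assigned to no gene was 10.59% in Dnmt3a1-/- library 1, 10.34% in library 2 and 10.8% in library 3, each above every wild type library (9.376%, 10.16% and 9.51% in libraries 1 to 3). The nearest libraries of the groups differed by less than the spread within either group.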

How the results depend on the processing

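The count of 2845 called genes became 4941 with the replicate block, 371 with the choroid plexus markers as a term, and 1109 without wild type library 3 and Dnmt3a1-/- library 1 together, a choice made after seeing the data. Without any 1 library it was 1599 to 2725, with 1599 without wild type library 3 and 1835 without Dnmt3a1-/- library 2. It was 2517 by DESeq2 (2362 of them among the 2845), 2770 by limma-voom, 2873 with RLE size factors, 3689 with no filter, 2864 with a stricter one, 3106 with sex as a term and 3109 with all 8 wild type libraries (1964 of them among the 2845). The 17 genes of the difference from Dnmt3a1_delta_N became 479 with the replicate block and 4 to 184 without any 1 library. The difference from hippocampus gave 0 calls under each alternative run, by edgeR and limma-voom. In the edgeR fit reported 777 of 15433 genes were at an unadjusted p under 0.05. The cause of these shifts was not tested.

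The block, which pairs same-numbered libraries, ended the calls of Steap1, Vcan, Agt and Wfikkn2 among 207 named genes, and it started those of Fkbp5, Fos, Nr4a1 and Slc17a7. No call was lost by 165 of the 207 in the fits without 1 library. These 165 include genes that had no call to lose, such as Dnmt1, Dnmt3b, Fkbp5, Fos, Nr4a1, Slc17a7 and Ttr. Calls lost numbered 114 with the choroid plexus term, 45 with all 8 wild type libraries, 54 without wild type library 3 and Dnmt3a1-/- library 1, 6 by DESeq2 and 8 by limma-voom. Some of the 114 had estimates no smaller with the term, as for Rec8, Tdrd5, Zfhx4 and Slc38a5. With all 8 wild type libraries the calls of Dnmt3b, Fkbp5 and Slc17a7 were gained. Estimates that changed sign were those of Dnmt1 (-0.025 to 0.11 without any 1 library, lowest without Dnmt3a1-/- library 2) and Fos (0.049 to 1.35 without any 1 library), with Fos at -0.15 with the choroid plexus term and -0.24 without wild type library 3 and Dnmt3a1-/- library 1; neither was called. Library Dnmt3a1-/- 1, with 11745576 counts, limits the precision of genes of low CPM.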
